A study of Mus musculus with 2 samples.

Results

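The 9 genes described here encode integrin chains of activated T cells, 5 alpha chains (*Itga1*, *Itga4*, *Itgae*, *Itgal* and *Itgav*) and 4 beta chains (*Itgb1*, *Itgb2*, *Itgb3* and *Itgb7*). They were picked by gene symbol, with no threshold on a measured value but with earlier results of these data known, and they are 9 of the 14732 gene symbols listed in at least 1 of the 2 libraries. All 9 were listed in both libraries.

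The 2 libraries came from OT-I transgenic C57BL/6 mice aged 6 to 8 weeks, whose CD8+ T cells carry a T cell receptor for the ovalbumin peptide SIINFEKL. CD8+ T cells of spleen and lymph nodes received this peptide at 2.5 ng/mL with IL-2 at 10 U/mL for 24 h. They were then spun for 90 min at 1800 rpm and 32 °C with retrovirus and polybrene at 6 µg/mL, the virus carrying either *Eomes*, a T-box transcription factor, followed by human CD2, or human CD2 alone (empty vector, control). Cells with human CD2 on the surface were sorted 48 h later, and 40000 cells per well were given peptide and IL-2 at the same doses for 3 more days before total RNA was taken. Both groups therefore hold activated, transduced, sorted and restimulated cells. The *Eomes* added in the treated group was driven by the vector, and the values do not separate it from transcript of the cells' own *Eomes* gene. Each group was 1 library, so the differences could not be checked against replicates and carry no p-value.

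Integrins are adhesion receptors built from 1 alpha and 1 beta chain. The chains assemble inside the cell and reach the surface as a pair, so the chain that is made in the smaller amount can limit how much of a receptor is formed, and chains with several possible partners are shared among them. On T cells, LFA-1 (αLβ2) holds the cell to ICAM-bearing targets, VLA-4 (α4β1) and α4β7 guide cells into inflamed tissue and gut through VCAM-1 and MAdCAM-1, and CD103 (αEβ7) keeps cells beside E-cadherin-bearing epithelium. The αV chain forms receptors for vitronectin, fibronectin and latent TGF-β, and α1β1 binds collagen.

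The values are FPKM, fragments counted per unit of transcript length and of sequencing depth, so chains can be set side by side within a library. The low values placed the depth near 18750000 reads for both libraries. The control library listed 14130 genes with a median FPKM of 5.71, and the Eomes library 13985 genes with a median of 5.84. These counts and medians include symbols that had turned into dates (20 in control, 19 in Eomes), which were left out of the rest. *Eomes* itself stood at 2.47 FPKM in control and 129.64 FPKM in the treated cells, with a log2 ratio of 5.71. All 9 CD8 T cell markers were at 1 FPKM or more in both libraries, while *Cd8a* (181.81 and 99.10) and *Cd2* (265.32 and 170.85) were more than 1.5-fold lower with Eomes. The other 7 were also lower with Eomes, within 1.5-fold, and the median log2 ratio of the 9 was -0.25. Of the markers of other cells, the 3 of CD4 T cells summed to 0.53 FPKM in control and 0.23 with Eomes, the 5 of B cells to 2.87 and 1.62, and the 6 of myeloid cells to 4.07 and 5.71. The 5 dendritic cell markers summed to 2.60 and 1.75, the 4 fibroblast markers to 1.70 and 1.52, and the 4 platelet markers to 0.07 and 0.10. At 1 FPKM or more, *Cd68* of myeloid cells (2.68 and 4.59 FPKM) was more than 1.5-fold higher with Eomes. *Cd79b* of B cells (2.79 and 1.56) and *Xcr1* of dendritic cells (1.79 and 1.11) were more than 1.5-fold lower. The B cell genes *Ms4a1* and *Pax5*, the myeloid genes *Csf1r*, *Lyz2*, *Adgre1* and *Fcgr1*, and the platelet genes *Pf4*, *Gp9* and *Ppbp* were not listed in either library. Of the 3 natural killer cell markers, *Klrb1c* was 0.31 and 5.74 FPKM and *Klrd1* 24.96 and 17.23, and *Ncr1* was not listed. Whether these other markers had a part in the integrin values was not tested. In such bulk libraries, fewer cells with a transcript and less transcript per cell cannot be told apart.

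The integrin transcripts of control OT-I cells spanned from *Itgb2* at 169.27 FPKM to *Itga1* at 0.22 FPKM. In control the order from high to low was *Itgb2*, *Itgal*, *Itgb7*, *Itgb1*, *Itgb3*, *Itgav*, *Itga4*, *Itgae* and *Itga1*. In Eomes-overexpressing cells 3 neighbouring pairs of this order were exchanged, so that *Itgal* stood above *Itgb2*, *Itgb1* above *Itgb7* and *Itgav* above *Itgb3*. The first and the last of these exchanges involved chains less than 1.5-fold apart in both libraries. *Itgb1* and *Itgb7* were less than 1.5-fold apart with Eomes only. *Itga4*, *Itgae* and *Itga1* were the 3 lowest chains in both libraries.

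**Figure D1:**
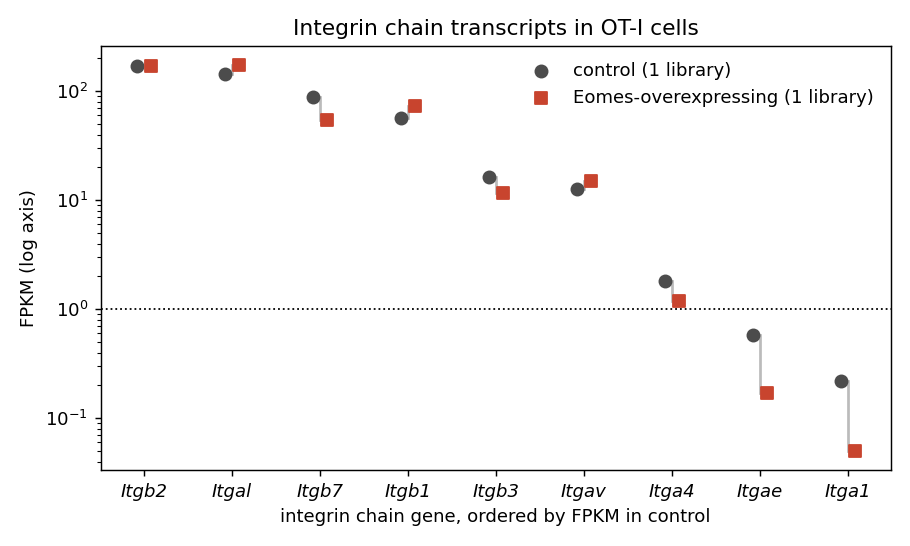
FPKM (log axis) of the 9 integrin chains in the control library (circles) and the Eomes library (squares), ordered by the control value, with a dotted line at 1 FPKM. *Itgb7* is at 89.00 and 54.22 FPKM and lies below *Itgb1* in the Eomes library, while *Itgae* and *Itga1* lie under the dotted line in both libraries.

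None of the 9 chains was more than 1.5-fold higher in Eomes-overexpressing cells, and 2 of the 7 chains at 1 FPKM or more, *Itgb7* and *Itga4*, were more than 1.5-fold lower. Over all 9925 genes at 1 FPKM or more in at least 1 library, 244 (2.46%) lay above the 1.5-fold line and 515 (5.19%) lay below it. The median log2 ratio (Eomes-overexpressing over control) was 0.00 over the 7 chains, against -0.0037 over those genes, and -0.50 over all 9 chains. Of the 9 chains, 4 had a log2 ratio above 0 and 5 below 0. The 2 chains under 1 FPKM, *Itgae* and *Itga1*, had the lowest ratios of the 9.

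The β2 and αL chains of LFA-1, the main leukocyte integrin, were the most abundant beta and alpha chains in both libraries. *Itgb2* (chromosome 10 of mm10, 77530252 to 77565708) was at 169.27 FPKM in control and 169.78 FPKM with Eomes. Its log2 ratio was 0.00, with a 95% counting interval from -0.04 to 0.05. *Itgal* (chromosome 7, 127296260 to 127335138) was at 142.54 FPKM in control and 173.27 FPKM with Eomes, 1.22-fold higher, with a log2 ratio of 0.28 (0.24 to 0.32). The 2 chains of LFA-1 thus did not move by the same ratio between these libraries. The counting intervals come from approximated read numbers, at least 7332 and 9629 reads for *Itgb2* and *Itgal* in control. They cover counting error only and compare 2 libraries, not 2 conditions.

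The β7 chain had the lowest log2 ratio of the 6 chains above 10 FPKM. *Itgb7* (chromosome 15, 102215995 to 102231944) was at 89.00 FPKM in control and 54.22 FPKM with Eomes, 1.64-fold lower, with a log2 ratio of -0.71 (-0.79 to -0.64). It ranked 1019th of all genes in control and 1672nd with Eomes. Of the 500 genes nearest in mean level, 95% had ratios between -0.39 and 0.39, and 0.4% had a lower ratio than *Itgb7*. It was the only one of the 9 chains outside this central range of its own 500 nearest genes.

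Both alpha partners of β7 were lower as well. *Itga4* (chromosome 2, 79255426 to 79333123), whose chain joins β7 or β1, was at 1.81 FPKM in control and 1.20 FPKM with Eomes, 1.51-fold lower, with a log2 ratio of -0.59 (-1.04 to -0.14). This chain is near the threshold and was inside it at -0.56 when each library was divided by its summed FPKM. Centred on genes of similar GC content, the log2 ratio of *Itga4* was -0.80. Of the 500 genes nearest in level, 15.6% had a lower ratio. *Itga4* shares 1124 exon bases with *Cerkl* on the opposite strand (0.59 and 0.42 FPKM), and whether reads were assigned by strand is not given in the sources used here. *Itgae* (chromosome 11, 73090583 to 73147446), which encodes CD103, was at 0.58 FPKM in control and 0.17 FPKM with Eomes, with a log2 ratio of -1.77 (-2.91 to -0.79). These values stand for at least 38 and 11 reads. Ratios past 1.5-fold were common at this level, since 772 of the 2474 genes (31.2%) whose higher value was from 0.1 to under 1 FPKM were that much lower with Eomes. Of the 500 genes nearest in level, 5.4% had a lower ratio than *Itgae*. With 1 FPKM added to both values, the log2 ratio of *Itgae* was -0.43.

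The 250 bases before the RefSeq start sites of *Itga4* and *Itgb7* are shown because these genes, which encode both chains of α4β7, were the 2 expressed chains more than 1.5-fold lower in the cells given a T-box factor. Capitals mark the letters GGTGTGA, the core that T-box proteins are known to bind, searched on both strands (reverse TCACACC). The sequences are from RefSeq on GRCm38.p6, each read 5′ to 3′ on the strand of its gene.
Itga4 (chr2:79255176-79255425, plus strand): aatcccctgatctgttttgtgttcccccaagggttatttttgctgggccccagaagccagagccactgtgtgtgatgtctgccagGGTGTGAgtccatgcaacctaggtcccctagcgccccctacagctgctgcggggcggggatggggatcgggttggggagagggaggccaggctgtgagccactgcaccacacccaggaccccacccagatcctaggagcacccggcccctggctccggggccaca
Itgb7 (chr15:102231936-102232185, minus strand): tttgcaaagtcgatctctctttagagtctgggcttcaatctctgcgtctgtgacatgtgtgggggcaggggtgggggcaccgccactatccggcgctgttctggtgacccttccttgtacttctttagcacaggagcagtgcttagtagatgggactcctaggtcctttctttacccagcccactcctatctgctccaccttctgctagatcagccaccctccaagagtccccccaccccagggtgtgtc
The *Itga4* promoter held 1 match, which began at position -165 from the start site, and the *Itgb7* promoter held none. Promoters of 300 bases (250 before to 50 after the start) were at hand for 5 of the 9 chains, namely *Itga1*, *Itga4*, *Itgav*, *Itgb1* and *Itgb7*, and 1 of these 5 held the letters. Over all 32851 promoters of that length, 1307 (3.98%) held them. G and C made up 64.3% of the *Itga4* promoter and 56.3% of the *Itgb7* promoter, against a median of 52.7% over all of them. A match is a description of letters and not a binding site. The authors placed most Eomes-bound sites in introns or between genes, mostly far from start sites, where these windows do not reach.

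The β1 chain, the partner shared by most alpha chains, was higher with Eomes but within 1.5-fold. *Itgb1* (chromosome 8, 128685654 to 128733200) was at 56.92 FPKM in control and 73.18 FPKM with Eomes, 1.29-fold higher, with a log2 ratio of 0.36 (0.29 to 0.44). Of the 500 genes nearest in level, 97.0% had a lower ratio. *Itgav* (chromosome 2, 83724397 to 83806916) was at 12.59 FPKM in control and 15.13 FPKM with Eomes, 1.20-fold higher, with a log2 ratio of 0.27 (0.12 to 0.41). Centred on genes of similar GC content, the log2 ratio of *Itgav* was 0.12 and that of *Itgb1* 0.26. *Itgb3* (chromosome 11, 104608000 to 104670476), which pairs with αV in the vitronectin receptor, went the other way. It was at 16.38 FPKM in control and 11.57 FPKM with Eomes, 1.42-fold lower, with a log2 ratio of -0.50 (-0.67 to -0.34). Of the 500 genes nearest in level, 5.6% had a lower ratio than *Itgb3*. The platelet alpha partner of β3, *Itga2b*, was at 0.07 FPKM in control and 0.10 with Eomes.

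The collagen-binding α1 chain was barely detected. *Itga1* (chromosome 13, 114953096 to 115101964) was at 0.22 FPKM in control and 0.05 FPKM with Eomes, which stand for at least 15 and 3 reads. On these low estimates of the reads, the log2 ratio of -2.14 had a counting interval from -4.75 to -0.50, and it was -0.22 after 1 FPKM was added to both values. Of the 500 genes nearest in level, 7.4% had a lower ratio. The *Itga1* locus shares 685 exon bases with *Gm49395* on the same strand, for which no value was listed, and also holds *Pelo* (30.22 and 27.89 FPKM), which shares no exon base with it.

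**Figure D2:**
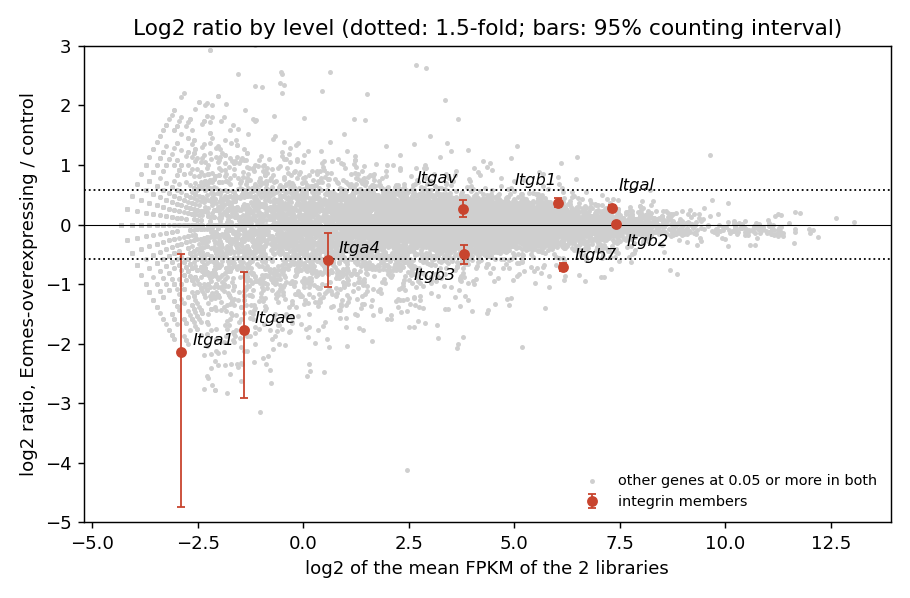
Log2 ratio of Eomes-overexpressing over control against the log2 of the mean FPKM of the 2 libraries, for the 9 integrin chains (red, bars: 95% counting intervals) and the other genes at 0.05 FPKM or more in both libraries (grey), with dotted lines at 1.5-fold. *Itgb7* at -0.71 lies below the dotted line in a range where few genes do, and *Itga1* and *Itgae* lie where the grey points fan out.

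The 9 chains can form 7 known pairs, and in each pair the chain with the lower FPKM was taken as the limiting one, of transcripts only. In control the alpha chain was the limiting one in 7 of 7 pairs, and with Eomes in 5 of 7. The 5 pairs that kept a limiting alpha chain were those with β1 and β7. The beta chain stood far above its partner in VLA-1, VLA-4, α4β7 and CD103. For α4β7, *Itgb7* was 49.2-fold above *Itga4* in control and 45.2-fold with Eomes, so both chains were lower by similar ratios. For CD103, *Itgb7* was 153-fold above *Itgae* in control and 319-fold with Eomes. For VLA-4, *Itgb1* was 31.4-fold above *Itga4* in control and 61.0-fold with Eomes, since *Itgb1* was higher and *Itga4* lower. In VLA-1 the β1 chain was 259-fold above α1 in control, and 1464-fold with Eomes, where the α1 value rests on few reads. In αVβ1, *Itgb1* was 4.52-fold above *Itgav* in control and 4.84-fold with Eomes.

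In the other 2 pairs the chains were near each other and their order was exchanged. In LFA-1, *Itgal* was 0.842 times *Itgb2* in control and 1.02 times *Itgb2* with Eomes. The level of whichever chain was lower went from 142.54 FPKM (αL) to 169.78 FPKM (β2), a log2 ratio of 0.25. In αVβ3, *Itgav* was 0.769 times *Itgb3* in control and 1.31 times *Itgb3* with Eomes, a log2 change of 0.77 in the ratio of the chains. Here the lower chain was αV at 12.59 FPKM in control and β3 at 11.57 FPKM with Eomes, a log2 ratio of -0.12. This sets αV against β3 alone, although αV is shared with other beta chains. Both exchanges rest on chains less than 1.5-fold apart in each library. FPKM also depends on which transcript lengths were used, so an order this close is less certain than the order in the other 5 pairs. When only pairs more than 1.5-fold apart were counted, the alpha chain was limiting in 5 pairs in both libraries.

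**Figure D3:**
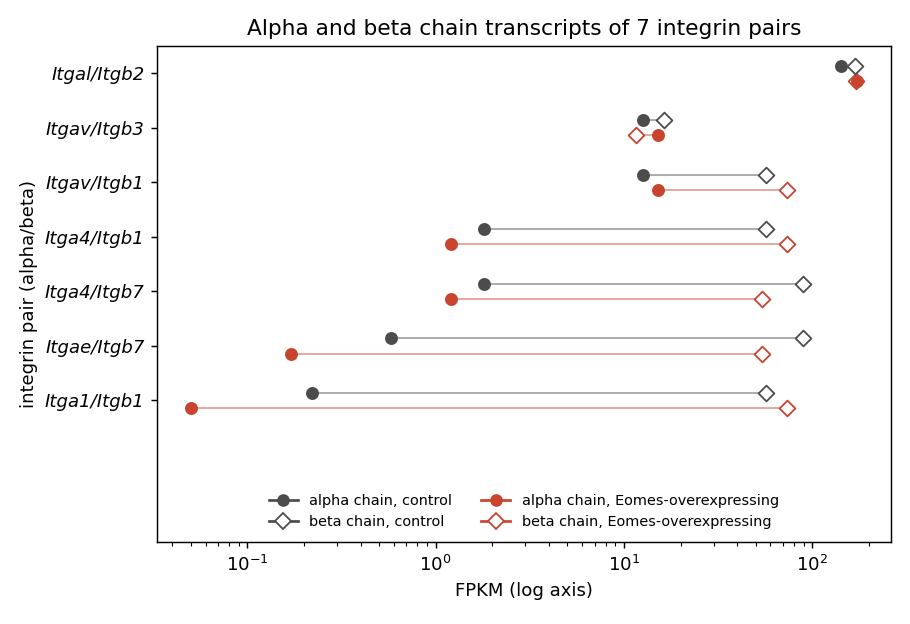
FPKM (log axis) of the alpha chain (filled circles) and the beta chain (open diamonds) of 7 integrin pairs, joined by lines, in control (grey) and Eomes-overexpressing cells (red). The distance between the chains is widest for *Itga1*/*Itgb1*, and the red circle lies to the right of the red diamond in *Itgal*/*Itgb2* and *Itgav*/*Itgb3* alone.

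Shared chains were then set against the sum of all their listed partners, including partners outside the 9 genes. *Itgb1* was 2.29 times the sum of its 11 listed alpha partners in control (24.9 FPKM) and 3.15 times in Eomes-overexpressing cells (23.2 FPKM). *Itgav* made up 50.6% of that partner sum in control and 65.2% with Eomes. *Itgb7* was 37.2 times the sum of *Itga4* and *Itgae* in control (2.39 FPKM) and 39.6 times with Eomes (1.37 FPKM). *Itga4* held 75.7% of this small sum in control and 87.6% with Eomes. Seen from α4, β7 made up 61.0% of its 2 beta partners in control and 42.6% with Eomes, where β1 was the more abundant partner. *Itgav* was 0.167 times the sum of its 3 listed beta partners in control and 0.172 times with Eomes. Set against all these partners, αV was thus the scarcer side in both libraries. *Itgb3* was 1.29 times the sum of its 2 listed alpha partners in control and 0.760 times with Eomes. For *Itgb2*, *Itgal* accounted for 99.9% of the partner sum in control and 99.8% with Eomes. The myeloid partners were low, with *Itgam* at 0.01 FPKM in control and 0.16 with Eomes, *Itgax* at 0.17 and 0.18, and *Itgad* at 0.01 and 0.05.

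Over all integrin genes, the 17 listed alpha chains summed to 168 FPKM in control and 197 FPKM with Eomes. *Itgal* held 84.7% of the alpha sum in control and 87.9% with Eomes. The 6 listed beta chains summed to 334 FPKM in control and 312 FPKM with Eomes. In this beta sum, *Itgb2* held 50.7% in control and 54.4% with Eomes, *Itgb7* 26.6% and 17.4%, and *Itgb1* 17.0% and 23.4%. The second beta chain was thus β7 in control and β1 with Eomes.

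Of 18 other integrin chains, 14 were listed and 4 were at 1 FPKM or more, and 1 of the 4 was more than 1.5-fold lower. *Itga3*, whose chain pairs with β1 as a laminin receptor, was at 4.70 FPKM in control and 2.16 FPKM with Eomes, a log2 ratio of -1.12 (-1.43 to -0.81). *Itga5*, the fibronectin receptor chain, was at 2.68 and 2.30 FPKM, and *Itga6*, a laminin receptor chain, at 2.38 and 1.90 FPKM. *Itgb5*, a further partner of αV, was at 2.27 FPKM in control and 3.38 FPKM with Eomes, 1.49-fold higher and so just inside the threshold, with a log2 ratio of 0.57 (0.21 to 0.95).

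Talin and kindlin bind beta chain tails and switch integrins to the active form, and RAP1 and its regulators bring talin to the membrane. Of 18 such activators, 15 were at 1 FPKM or more, and none of them was more than 1.5-fold higher or lower (median log2 ratio 0.10). With 2.46% of all expressed genes past the threshold upward and 5.19% downward, a count of 0 among 15 is near that background. The same shares stand beside the counts of 0 or 1 gene in each direction in the other integrin-related lists. Those lists are too short for such counts to be read as results about them. Kindlin-3 (*Fermt3*) was at 171.74 FPKM in control and 150.72 with Eomes. *Rap1b* was at 120.25 and 129.30 FPKM. *Tln1*, the main talin gene, stood at 79.00 and 82.17 FPKM, and *Rapgef1*, an exchange factor for RAP1, at 61.29 and 58.97 FPKM. *Cyth1*, whose product cytohesin-1 binds the β2 tail, was named after its value was seen, since at 30.86 and 20.68 FPKM it came nearest the threshold of this list (log2 ratio -0.58, -0.74 to -0.42). A lower ratio than that of *Cyth1* was found in 1.0% of the 500 genes nearest to it in level. This small share follows in part from the choice, since *Cyth1* was picked for its ratio.

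Of 9 expressed genes on a list of integrin inhibitors, 1 was more than 1.5-fold higher and none more than 1.5-fold lower, with a median log2 ratio of -0.07. *Dok2*, an adaptor that dampens T cell receptor signalling and belongs to a family whose members bind beta chain tails, was at 48.04 FPKM in control and 83.20 FPKM with Eomes, a log2 ratio of 0.79 (0.68 to 0.90). Filamin A (*Flna*), which competes with talin for beta tails, was at 104.82 and 92.80 FPKM. *Sipa1*, which turns RAP1 off, was at 46.87 and 58.73 FPKM. *Sharpin*, which holds integrins inactive, was at 30.03 and 28.50 FPKM.

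Among 13 expressed genes that carry signals or force from integrins to actin, 1 lay above and 1 below the 1.5-fold lines, with a median log2 ratio of 0.00. Vinculin (*Vcl*), which links talin to actin, was at 1.97 FPKM in control and 3.35 FPKM with Eomes, a log2 ratio of 0.77 (0.43 to 1.11). The adaptor gene *Bcar1* was at 1.78 FPKM in control and 1.06 with Eomes, a log2 ratio of -0.75 (-1.28 to -0.25). The most abundant genes of the list were close between libraries, with *Vasp* at 197.38 and 205.74 FPKM, *Actn4* at 150.12 and 142.58, *Parvg* at 97.51 and 91.83, and *Ilk* at 69.05 and 61.03.

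Ligands made by the T cells themselves were also compared. Of 8 expressed ligand genes, 1 was more than 1.5-fold higher and none more than 1.5-fold lower. Osteopontin (*Spp1*), a ligand of αV and α4 integrins, was at 45.32 FPKM in control and 92.87 FPKM with Eomes, a log2 ratio of 1.03 (0.91 to 1.16). *Thy1*, which also marks T cells, was at 1195.28 and 1108.74 FPKM. *Tgfb1*, whose latent form is bound by αV integrins, was at 226.80 and 241.51 FPKM, and *Icam1*, the LFA-1 ligand, at 38.08 and 35.21 FPKM. The partner ligands of α4 and αE integrins on other cells, *Vcam1*, *Madcam1* and *Cdh1*, were under 1 FPKM in both libraries.

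Of 9 expressed surface proteins known to associate with integrins, 1 was more than 1.5-fold lower, with a median log2 ratio of -0.27. The tetraspanin gene *Cd81* was at 30.04 FPKM in control and 10.77 FPKM with Eomes, a log2 ratio of -1.48 (-1.77 to -1.20). Another tetraspanin gene, *Cd82*, was at 266.19 and 190.09 FPKM, within 1.5-fold. *Slc3a2*, which binds β1 and β3 tails, was at 151.57 and 144.15 FPKM, *Cd47*, a partner of αVβ3, at 124.56 and 129.49, and *Cd53* at 108.02 and 98.43.

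TGF-β is the known inducer of CD103 in CD8 T cells, acting through SMAD3 and, together with RUNX3, on *Itgae*. Of 10 expressed genes on a list of TGF-β receptors, SMADs and factors known for *Itgae*, 1 was more than 1.5-fold lower, with a median log2 ratio of 0.17. *Smad3* was at 1.73 FPKM in control and 0.97 FPKM with Eomes, with a log2 ratio of -0.83 and a wide counting interval from -1.64 to -0.06. *Runx3* was at 54.41 and 60.74 FPKM, *Prdm1* at 14.95 and 16.96, *Tgfbr2* at 11.87 and 13.95, and *Ski*, a repressor of SMAD activity, at 13.50 and 12.61.

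**Figure D4:**
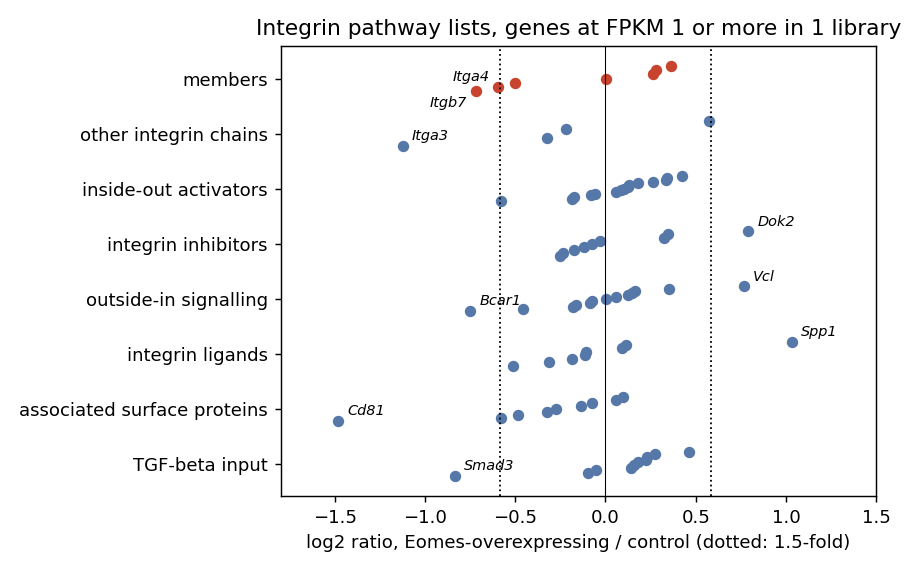
Log2 ratio of Eomes-overexpressing over control for the integrin chains (red) and the genes of 7 integrin-related lists (blue) at 1 FPKM or more in at least 1 library, with dotted lines at 1.5-fold and the names of genes past them. Of the activators, none lies past the lines, and of the associated surface proteins *Cd81* at -1.48 stands apart.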

How the data were processed

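Total RNA of 1 control and 1 Eomes-overexpressing OT-I culture was sequenced on an Illumina instrument. The authors filtered reads with SOAPnuke, mapped them to mm10 with HISAT and Bowtie2 and deposited FPKM values from RSEM, 1 per gene symbol from 0.01 upward (their methods write RPKM). Whether replicates or animals were pooled is not given in the sources used here. Symbols turned into dates (20 in control, 19 in Eomes) were left out.

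Ratios and plots were made with matplotlib 3.10.9, scipy 1.17.1, pandas 2.3.3, numpy 2.4.6 and Python 3.11.15. A floor of 0.01 replaced values under 0.01 or absent from a list. A gene at 1 FPKM or more in at least 1 library was called expressed, and 1.5-fold was the threshold. With 1 library per condition there was no test. Depth was read as the number of reads at which low FPKM values, with GENCODE vM21 lengths, came closest to whole reads. This gave 19310000 reads for control, 18750000 for Eomes and 18750000 for both together, and 21370000 for both with 100 bases taken off each length. Reads per gene were taken from FPKM, the coding length and a depth of 18750000, a low estimate. Intervals are exact (Clopper-Pearson) 95% intervals on them, for counting error only. The reading of depth was also run on reads simulated at known depths. No bases were taken off the lengths there, so it does not cover the difference made by taking off 100 bases.

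All 9 chains were named, with every other integrin chain at 1 FPKM or more. From each integrin-related list, the genes past 1.5-fold and the 4 highest in mean FPKM were named. Among the cell markers, those past 1.5-fold at 1 FPKM or more were named as well. Partner chains and ligands under 1 FPKM, and *Cyth1*, were named after their values were seen. No gene was named for a pattern like that of a chain, since 2 libraries give a single ratio. Members and lists were chosen with earlier results of these data known.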

Additional observations from a re-analysis of the deposited data

How the results depend on the processing

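With 1 library per condition, no replicate could be left out. No paired analysis was possible because each group has a single library. The number of chains more than 1.5-fold lower was 2. It was 1 after each library was divided by its summed FPKM (TPM scale), 1 with a pseudocount of 0.1, 1 with a pseudocount of 1 and 1 with a minimum of 5 FPKM. It was 4 with no minimum FPKM and 0 at a 2-fold threshold. The chain lost on the TPM scale and with either pseudocount was *Itga4*, at log2 ratios of -0.56, -0.55 and -0.35. *Itgb7* stayed past 1.5-fold in these 3 settings and after centring by GC content (-0.61). No chain was more than 1.5-fold higher in any setting. The median log2 ratio over the 9 chains, -0.50, was -0.22 with a pseudocount of 1 and 0.004 over the 7 chains at 1 FPKM or more. With a pseudocount of 1, *Itga1* was at -0.22 and *Itgae* at -0.43. Centring by GC content put *Itga4* at -0.80, *Itgal* at 0.37, *Itgav* at 0.12, *Itgb1* at 0.26 and *Itgb2* at 0.09. The limiting alpha chain was counted in 7 pairs in control and 5 with Eomes, and in 7 and 6 when shared chains were divided between partners. When the chain that was lower in control was followed, the log2 ratio was 0.28 for LFA-1 and 0.27 for αVβ3. Depth limits *Itga1* and *Itgae* most, at low estimates of 3 and 11 reads with Eomes. The αVβ3 value changed sign from -0.12 when the chain that was lower in control was followed. The median over the chains at 1 FPKM or more also lay on the other side of 0 from that over all 9. No single chain changed sign.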
